A study of Homo sapiens with 19 samples.

Results

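TRE6_060S elements are the tested DNA elements whose names are TRE6_060S, 4 digits and either .fwd or .rev. They were taken by name alone from the 6 tables of the second plasmid set, by a rule that uses no measured value. Earlier results of these data were known at that choice. There were 120 such elements, of 3196 different names in these 6 tables and 3422 in the whole series. The digits were read as a locus and fwd and rev as its 2 orientations, which gave 63 loci, 57 of them with both orientations (58 fwd and 62 rev elements). What TRE6 and 060S stand for, and the sequences and positions of the elements, are not given in the sources used here. Elements that share their digits share a locus and are not independent of each other.

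Transcriptional elements are usually described by 2 activities. A promoter starts RNA synthesis from its own position, and an enhancer raises synthesis from another promoter. A minimal promoter is a short core promoter with little activity of its own, placed so that an element can drive it. The 3 minimal promoters here carry the names of GAPDH, which encodes a glycolytic enzyme and is widely expressed, of APOBEC3F, which encodes an antiviral cytidine deaminase, and of MYC, which encodes a transcription factor that promotes growth. An enhancer is classically described as working in either orientation, whereas transcription from a promoter has a direction.

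QUASARR-seq reads both activities of an element from 1 plasmid, through the barcode named paBC for the promoter read-out and the barcode named eaBC for the enhancer read-out. The plasmid pool held the elements with pGAPDH, pAPOBEC3F and pMYC together and was electroporated into K-562 cells, an established line from a chronic myeloid leukaemia. Per the labels, each electroporation took 20 µg of plasmid, 5 electroporations were pooled for a technical replicate, 2 technical replicates made a biological one, and RNA and plasmid DNA were taken from the same pool after 6 h. Biological replicates were grown and electroporated on different days. The groups were therefore RNA of paBC against DNA of paBC, and RNA of eaBC against DNA of eaBC, each with 2 RNA and 2 DNA libraries and split by barcode into 3 tables, 1 per minimal promoter. Elements were thus measured on electroporated plasmids and not at their place in the genome. Which of these kinds the numbers 1 and 2 stand for is not given, so the p-values below measure only the spread between these libraries.

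Every deposited value was a whole multiple of 1 step in its column, and the step was taken as 1 read. On that reading, the RNA libraries held 200722 to 10167588 reads per table and the DNA libraries 759171 to 5622101. The smallest RNA totals were those of the pAPOBEC3F enhancer table and the largest those of the pGAPDH promoter table. A member had a median of 53.0 and 56.5 reads in the 2 RNA libraries of the pAPOBEC3F enhancer table, against 2573.5 and 2787.5 reads in those of the pGAPDH promoter table. The median SD between the 2 replicate ratios of a member was 0.033 to 0.083 in the promoter tables and 0.072 to 0.18 in the enhancer tables. These ratios correlated over the members with r = 0.969 to 0.991 in the promoter tables and r = 0.843 to 0.852 in the enhancer tables, which describes members of the same libraries and is not a test. A count of reads was not taken as a count of molecules.

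The level of an element is given as the log2 ratio of RNA over DNA, the mean of 2 replicate ratios with their SD. Its zero point is that of the authors' scaling, under which the median of all tested elements was 0.24 with pAPOBEC3F and with pMYC in the promoter read-out and 0.20 with pMYC in the enhancer read-out. An element was called higher or lower when RNA and DNA differed at a limma p-value under 0.05 after Benjamini-Hochberg adjustment over the whole table. The tables were normalized separately, so no level was tested between them, and values from different tables are set side by side only. Of the 120 members, 114 were present with pGAPDH, 102 with pAPOBEC3F and 105 with pMYC, and every one present was tested. Of these members, 87 were in all 6 tables, 27 in 4 of them and 6 in 2 of them.

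In the promoter read-out, most members were above their DNA level with pAPOBEC3F and pMYC. With pGAPDH more members were called below it than above, as were more of all elements. With pAPOBEC3F, 73 of 102 members were called higher and 18 lower, where 50.5% of all tested elements were called higher and 30.0% lower. The median member had a log2 ratio of 1.20, against 0.24 over all elements of that table, and 27 members (26.5%) had a log2 ratio of at least 2, against 21.4% of all elements. With pMYC, 70 of 105 members were called higher and 14 lower, where 51.6% of all elements were called higher and 27.6% lower. The median member stood at 0.65, against 0.24 over all elements. With pGAPDH, 46 of 114 members were called higher and 54 lower, where 36.5% of all elements were called higher and 47.1% lower. The median member had -0.07, against -0.07 over all elements. The count of lower calls with pAPOBEC3F, 18, was 7 without DNA replicate 1 and 8 without DNA replicate 2. When each table was centred on its own median, higher calls with pMYC made up 69.8% of the calls (60 higher and 26 lower), against 83.3% uncentred. Centred calls of members were 51 higher and 52 lower with pGAPDH, and 67 higher and 26 lower with pAPOBEC3F.

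In the enhancer read-out, 51 to 62 members per table were called neither higher nor lower, against 11 to 21 in the promoter read-out. All elements behaved alike: as enhancers 1746 of 3043 (pGAPDH), 1713 of 2695 (pAPOBEC3F) and 1359 of 2561 (pMYC) were not called. As promoters 499 of 3044, 526 of 2699 and 532 of 2561 were not. With pAPOBEC3F, 39 of 102 members were called higher and 4 lower, where 28.9% of all elements were called higher and 7.50% lower. The median member had a log2 ratio of 0.25, against 0.09 over all elements. With pMYC, 50 of 105 members were called higher and 4 lower, where 39.6% of all elements were called higher and 7.38% lower. The median member had 0.33, against 0.20 over all elements. With pGAPDH, 28 of 114 members were called higher and 24 lower, where 23.5% of all elements were called higher and 19.2% lower, and the median member had 0.01, against -0.01 over all elements. The pAPOBEC3F count of 39 was 23 without DNA replicate 1, and its 4 lower calls were 1 without either DNA replicate, and 11 and 9 when RNA replicates 1 and 2 were left out. The 4 lower calls with pMYC were 0 or 1 when a DNA replicate was left out and 10 or 7 when an RNA replicate was, and the 24 lower calls with pGAPDH were 11 without RNA replicate 2. Centred on the table's median, higher calls with pMYC made up 75.0% of the calls (36 higher and 12 lower), against 92.6% uncentred.

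Elements named TRE6_020S and TRE6_200S were set beside the members, first in the promoter read-out. With pAPOBEC3F the medians were 1.20 for the 102 TRE6_060S elements, 0.32 for 115 TRE6_020S elements and 0.76 for 21 TRE6_200S elements. With pMYC they were 0.65 for 105 TRE6_060S elements, 0.38 for 116 TRE6_020S elements and 0.17 for 20 TRE6_200S elements. With pGAPDH they were -0.07 for 114 TRE6_060S elements, -0.06 for 123 TRE6_020S elements and -0.59 for 38 TRE6_200S elements. In the enhancer read-out the medians, in the same order, were 0.25, 0.10 and 0.01 with pAPOBEC3F and 0.33, 0.30 and 0.24 with pMYC. With pGAPDH they were 0.01, -0.01 and -0.08. As enhancers 36.0% of TRE6_020S elements with pAPOBEC3F and 52.6% with pMYC were called higher, against 38.2% and 47.6% of members. These are descriptions of elements in the same libraries within each read-out, and the difference between the sets was not tested.

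The highest promoter value of any member belonged to TRE6_060S0005.rev. With pAPOBEC3F its deposited values were 2541 and 2328 in RNA, against 19.8 and 22.0 in DNA. The log2 ratio was 6.86 ± 0.20 (SD, n = 2), a 116-fold excess of RNA (SE 0.08, limma adjusted p = 4.5e-12), on 5051 RNA and 244 DNA reads. With pGAPDH the same element had 1086 and 984 in RNA, against 111 and 101 in DNA, a log2 ratio of 3.28 ± 0.00 (adjusted p = 1.7e-22). RNA and DNA values were far apart in both tables, and the element lay at percentile 99.96 and 99.90 of all elements there. Its partner TRE6_060S0005.fwd, found only with pGAPDH, had 691 and 715 in RNA, against 150.5 and 131 in DNA, a log2 ratio of 2.33 ± 0.18. As an enhancer with pGAPDH the rev element had 152 and 143 in RNA, against 135 and 144 in DNA, so that its RNA and DNA values overlapped (log2 ratio 0.08 ± 0.13, adjusted p = 0.54). The fwd element had 123 and 124 in RNA, against 145 and 151 in DNA, and was called lower (-0.26 ± 0.03, adjusted p = 0.029), a call that was lost without either RNA replicate (adjusted p = 0.17 and 0.15) and without DNA replicate 2 (0.078). With pAPOBEC3F the enhancer log2 ratio of the rev element was 0.92 ± 0.76 on 21 RNA and 52 DNA reads (adjusted p = 0.091). Locus TRE6_060S0005 was thus among the highest of all elements as a promoter, while no enhancer ratio of it was called higher.

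TRE6_060S0055.rev was high in both read-outs with every minimal promoter. In the promoter read-out with pMYC its values were 2558 and 2576 in RNA, against 146 and 153 in DNA (log2 ratio 4.10 ± 0.04, adjusted p = 1.1e-18). The enhancer values with pMYC were 1137 and 1183 in RNA, against 165 and 142 in DNA (2.92 ± 0.19, adjusted p = 7.2e-16). No RNA value overlapped a DNA value in either table. With pGAPDH the promoter values were 738 and 702 in RNA, against 216 and 214 in DNA (1.74 ± 0.04, adjusted p = 3.9e-20). The enhancer values with pGAPDH were 384 and 369 in RNA, against 236 and 215 in DNA (0.74 ± 0.05, adjusted p = 5.3e-16). With pAPOBEC3F the promoter log2 ratio was 4.09 ± 0.34 and the enhancer log2 ratio 2.95 ± 1.00, the largest SD of any member in that table. Those 2 values rested on 98 and 25 DNA reads, the fewest of any member in the pAPOBEC3F tables.

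The fwd orientation of the same locus was called higher as a promoter with every minimal promoter and as an enhancer with none. With pMYC, TRE6_060S0055.fwd had 738 and 766 in promoter RNA, against 142 and 161 in promoter DNA (2.32 ± 0.09, adjusted p = 6.0e-14). Its enhancer values with pMYC were 243 and 193 in RNA, against 211 and 213 in DNA, and overlapped (0.04 ± 0.24, adjusted p = 0.85). With pAPOBEC3F the promoter log2 ratio was 2.84 ± 0.08 (adjusted p = 6.6e-10), beside an enhancer log2 ratio of -0.03 ± 0.19 (adjusted p = 0.95). With pGAPDH the promoter log2 ratio was 0.15 ± 0.02 (adjusted p = 0.00077), beside an enhancer log2 ratio of -0.30 ± 0.01 that was called lower (adjusted p = 0.00019). The fwd element thus stood at percentiles 87.66, 67.21 and 89.46 of the promoter tables of pAPOBEC3F, pGAPDH and pMYC, and at 38.70, 9.63 and 37.49 of the enhancer tables.

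At locus TRE6_060S0058, with pAPOBEC3F and pMYC, both orientations were called higher as promoters and the rev element alone as an enhancer. The rev element with pMYC had 164 and 205 in promoter RNA, against 44.4 and 48.9 in promoter DNA (1.98 ± 0.13). Its enhancer values with pMYC were 258 and 242 in RNA, against 74.3 and 58.4 in DNA (1.92 ± 0.18, adjusted p = 6.7e-09). TRE6_060S0058.fwd with pMYC was called higher as a promoter (1.17 ± 0.23, adjusted p = 3.5e-08), while its enhancer ratio was -0.21 ± 0.49 (adjusted p = 0.46). With pAPOBEC3F the rev element had a promoter log2 ratio of 2.01 ± 0.06 and an enhancer log2 ratio of 1.41 ± 0.06, and the fwd element 1.33 ± 0.08 and -0.02 ± 0.12. With pGAPDH the rev element reached 0.29 ± 0.00 as a promoter and -0.04 ± 0.05 as an enhancer, and the fwd element 0.01 ± 0.08 and -0.43 ± 0.15. The pGAPDH enhancer value of the rev element lay near the middle of its table, at percentile 44.23, where pMYC had placed the element at 95.78 and pAPOBEC3F at 92.54.

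TRE6_060S0069 was high in both orientations and both read-outs. The fwd element with pMYC had 6734 and 6682 in promoter RNA, against 591 and 607 in promoter DNA (3.49 ± 0.04, adjusted p = 9.4e-20), and the rev element reached 2.89 ± 0.04. As enhancers with pMYC the fwd element had 3747 and 3709 in RNA, against 709 and 693 in DNA (2.41 ± 0.01), and the rev element reached 2.55 ± 0.10. RNA lay well above DNA in every one of these libraries. With pAPOBEC3F the fwd and rev elements had promoter log2 ratios of 3.65 ± 0.08 and 3.28 ± 0.01 and enhancer log2 ratios of 2.08 ± 0.05 and 2.44 ± 0.22. With pGAPDH they had 1.37 ± 0.03 and 1.28 ± 0.01 as promoters and 0.89 ± 0.04 and 1.12 ± 0.04 as enhancers, the 2 highest enhancer values of the members with pGAPDH. Of 36 loci with both orientations in all 6 tables, 4 (11.1%) were called higher in every one of the 12 measurements, namely TRE6_060S0063, TRE6_060S0066, TRE6_060S0069 and TRE6_060S0072. Of all 923 such loci of the library, 91 (9.86%) were so called. The 3 tables of a read-out come from the same libraries, so these calls are not independent of each other. The weakest were enhancer calls. TRE6_060S0063.fwd and TRE6_060S0072.rev with pGAPDH lost theirs without RNA replicate 1 (adjusted p = 0.32 and 0.10) and without a trend of the variance over abundance (0.20 and 0.094), and TRE6_060S0066.rev with pAPOBEC3F lost its call without DNA replicate 1 (0.44).

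Of the other loci called in all 12 measurements, TRE6_060S0063 had promoter log2 ratios of 3.07 ± 0.03 and 3.05 ± 0.11 (fwd and rev) with pAPOBEC3F, 0.72 ± 0.03 and 0.79 ± 0.04 with pGAPDH, and 2.29 ± 0.01 and 2.19 ± 0.03 with pMYC. Its enhancer log2 ratios were 0.73 ± 0.00 and 1.01 ± 0.10 with pAPOBEC3F, 0.13 ± 0.02 and 0.34 ± 0.02 with pGAPDH, and 0.91 ± 0.07 and 1.05 ± 0.06 with pMYC. Both orientations of this locus lay above their DNA level in each table. TRE6_060S0066 ranged from 0.45 (rev, pGAPDH) to 2.64 (fwd, pAPOBEC3F) as a promoter and from 0.30 (fwd, pGAPDH) to 1.11 (fwd, pMYC) as an enhancer. TRE6_060S0072 is taken up with the orientations below.

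TRE6_060S0015.rev was among the 4 highest members in all 3 promoter tables. It had 5445 and 5263 in promoter RNA with pMYC, against 314 and 316 in promoter DNA (4.09 ± 0.04, adjusted p = 9.4e-20). Its promoter log2 ratio was 4.71 ± 0.28 with pAPOBEC3F and 1.46 ± 0.07 with pGAPDH. Its enhancer log2 ratio was 2.31 ± 0.75 with pAPOBEC3F, 0.40 ± 0.25 with pGAPDH and 2.39 ± 0.06 with pMYC, all called higher. TRE6_060S0044.rev, present with pMYC only, had the highest promoter ratio of the members there, 4.10 ± 0.44, from 134 and 126 in RNA, against 6.22 and 9.03 in DNA. Its enhancer log2 ratio was 2.24 ± 0.24 (adjusted p = 0.00030), and the DNA reads behind the 2 values were 86 and 20, the fewest of any member with pMYC. TRE6_060S0057.fwd, not present with pMYC, combined a promoter log2 ratio of 3.56 ± 0.10 with pAPOBEC3F (2801 and 2686 in RNA, against 226 and 239 in DNA) with an enhancer log2 ratio of 0.60 ± 0.03. TRE6_060S0020 showed the other balance with pGAPDH, at 0.12 ± 0.03 and 0.25 ± 0.02 as a promoter (fwd and rev) and 0.65 ± 0.13 and 0.67 ± 0.10 as an enhancer.

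Members below their DNA level fell less far than the high members rose. The lowest promoter ratio was that of TRE6_060S0050.rev with pGAPDH, with 38.8 and 40.2 in RNA, against 121 and 122 in DNA (-1.62 ± 0.03, a 0.325-fold ratio, adjusted p = 1.9e-14). It lay at percentile 0.53 of that table, and at 22.79 and 18.31 of the promoter tables of pAPOBEC3F and pMYC, where its log2 ratios were -0.41 ± 0.12 and -0.44 ± 0.05. As an enhancer with pGAPDH it had 153 and 136 in RNA, against 125 and 121 in DNA (0.23 ± 0.09, adjusted p = 0.061). RNA of this element was therefore below DNA in all promoter libraries of pGAPDH and above DNA in all its enhancer libraries. Next were TRE6_060S0001.fwd (-1.32 ± 0.06) and TRE6_060S0032.rev (-1.10 ± 0.05), both as promoters with pGAPDH. TRE6_060S0075.fwd had the lowest promoter ratio with pAPOBEC3F (-1.02 ± 0.21) and TRE6_060S0023.fwd the lowest called one with pMYC (-0.81 ± 0.09, with 113 and 117 in RNA, against 207 and 197 in DNA).

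In the enhancer read-out the lowest called ratio was -1.14 ± 0.69 for TRE6_060S0004.rev with pAPOBEC3F, on 50 RNA reads (adjusted p = 0.0026, and 0.067 without a trend). With pMYC the same element had a lower ratio still, -2.46 ± 1.35, but on 1 RNA read in all, and was not called (adjusted p = 0.066). With pGAPDH the lowest were TRE6_060S0012.fwd (-0.50 ± 0.16, adjusted p = 0.0023), TRE6_060S0059.rev (-0.45 ± 0.05, adjusted p = 8.6e-05) and TRE6_060S0023.fwd (-0.44 ± 0.07, adjusted p = 3.7e-08). With pMYC they were TRE6_060S0070.rev (-0.52 ± 0.24, adjusted p = 0.0036, and 0.062 without DNA replicate 1) and TRE6_060S0012.fwd (-0.51 ± 0.37, adjusted p = 0.014, and 0.12 and 0.082 without DNA replicates 1 and 2). TRE6_060S0012.fwd was at the low end with pGAPDH and pMYC but had 0.33 ± 0.09 as a promoter (adjusted p = 0.0017, and 0.21 with the table centred) and 0.00 ± 0.13 as an enhancer with pAPOBEC3F.

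Orientation was compared within each library as the log2 difference of fwd minus rev, which does not depend on the scaling of the tables. In the promoter read-out most loci with both orientations differed between them, as did most loci of the library. With pGAPDH, 22 of 54 loci were called higher in fwd and 17 higher in rev, where 39.5% and 32.4% of all loci were so called. With pAPOBEC3F the counts were 17 and 11 of 45 loci, where 35.2% and 21.6% of all loci were called. With pMYC they were 21 and 8 of 44 loci, where 40.2% and 22.9% of all loci were called. The median size of the difference over the members was 0.33, 0.45 and 0.36 (log2), against 0.32, 0.41 and 0.39 over all loci of the 3 tables. The 28 calls with pAPOBEC3F were 13 and 15 without DNA replicates 1 and 2, and the 29 with pMYC were 18 without DNA replicate 2.

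As enhancers, fewer loci were called between orientations. The median size of the difference over the members was 0.16, 0.32 and 0.23 (log2) with pGAPDH, pAPOBEC3F and pMYC. Over all loci it was 0.15, 0.26 and 0.24. The libraries also held fewer reads than in the promoter read-out of the same minimal promoter, and the part of depth was not tested. With pGAPDH, 0 of 54 loci were called higher in fwd by limma and 14 higher in rev, where 3.43% and 12.7% of all loci were so called, and 23 of the 54 had an unadjusted p under 0.05 in either direction. With pAPOBEC3F, 1 locus was called higher in fwd and 2 higher in rev of 45, where 2.10% and 2.69% of all loci were called, and 16 had an unadjusted p under 0.05. With pMYC the counts were 3 and 5 of 44 loci, where 5.16% and 8.66% of all loci were called, and 18 had an unadjusted p under 0.05. The largest of these 3 fwd differences, 2.37 at TRE6_060S0004 (SE 0.67, limma adjusted p = 0.014), rests on a rev element with 1 RNA read in all. The 14 pGAPDH calls were 1 without RNA replicate 1, 2 without RNA replicate 2 and 0 without a trend of the variance. The 3 pAPOBEC3F calls were 0 without either DNA replicate and 16 without either RNA replicate, and the 8 pMYC calls ranged down to 4 (DNA replicate 2 left out) and up to 16 (RNA replicate 2 left out). Over the loci, the fwd and rev log2 ratios correlated with r = 0.716, 0.834 and 0.795 in the promoter tables of pGAPDH, pAPOBEC3F and pMYC (54, 45 and 44 loci). In the enhancer tables r was 0.621, 0.499 and 0.412. These are descriptions of loci measured in the same libraries, and the part of depth in them was not tested.

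Locus TRE6_060S0055 had the largest called excess of rev over fwd in all 3 enhancer tables. With pMYC fwd minus rev was -2.88 (SE 0.18, adjusted p = 1.9e-14), a 7.36-fold excess of rev. With pGAPDH it was -1.04 (SE 0.09, adjusted p = 3.5e-05), and 0.052 was the adjusted p without a trend in the variance. With pAPOBEC3F it was -2.98 (SE 0.53, adjusted p = 0.040), a call lost without DNA replicate 1 or 2 (adjusted p = 0.44 and 0.24), with the replicate block (0.083) and without a trend (0.077). Locus TRE6_060S0058 followed with pMYC, at -2.13 (SE 0.27, adjusted p = 2.5e-07), and with pAPOBEC3F, at -1.43 (SE 0.17, adjusted p = 0.014, and 0.23 and 0.24 without DNA replicates 1 and 2). As promoters both loci were also higher in rev, by less at TRE6_060S0058 than at TRE6_060S0055. The differences were -1.59, -1.25 and -1.78 for TRE6_060S0055 and -0.28, -0.68 and -0.81 for TRE6_060S0058 with pGAPDH, pAPOBEC3F and pMYC, all of them called.

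Locus TRE6_060S0072 was called higher in fwd in 5 of the 6 tables. With pMYC the fwd element had 1612 and 1768 in promoter RNA, against 156 and 163 in promoter DNA (3.40 ± 0.05), and the rev element 1850 and 1884 in promoter RNA, against 664 and 667 in promoter DNA (1.49 ± 0.01). Fwd minus rev was 1.91 (SE 0.06, adjusted p = 1.5e-07), a 3.77-fold excess of fwd. As enhancers with pMYC the log2 ratios were 1.97 ± 0.04 and 0.58 ± 0.00, and their difference was 1.40 (SE 0.13, adjusted p = 5.0e-10). With pAPOBEC3F the difference was 2.03 (SE 0.10, adjusted p = 1.8e-06) as a promoter and 1.55 (SE 0.16, adjusted p = 0.011, and 0.22 and 0.24 without DNA replicates 1 and 2) as an enhancer. With pGAPDH it was 0.67 (SE 0.05, adjusted p = 1.3e-06) as a promoter, and 0.16 (SE 0.09, adjusted p = 0.26) as an enhancer.

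Further large differences were seen in the promoter read-out. TRE6_060S0015 was higher in rev, with fwd minus rev at -2.31 (SE 0.12, adjusted p = 2.7e-06) with pAPOBEC3F and -1.14 (SE 0.04, adjusted p = 6.0e-08) with pGAPDH. TRE6_060S0019 was higher in rev with pAPOBEC3F, with a difference of -1.54 (SE 0.09, adjusted p = 4.0e-06). Its fwd and rev log2 ratios there were 1.33 ± 0.05 and 2.88 ± 0.11, while as enhancers they were 0.69 ± 0.20 and 0.62 ± 0.19. TRE6_060S0032 and TRE6_060S0050 were higher in fwd with pGAPDH, by 1.21 (SE 0.05, adjusted p = 1.1e-07) and 1.09 (SE 0.09, adjusted p = 3.4e-06). At both loci the rev element was among the 3 lowest called members, as given above. TRE6_060S0021 was higher in fwd with pAPOBEC3F by 1.97 (SE 0.17, adjusted p = 3.7e-05), with log2 ratios of 1.41 ± 0.07 for fwd and -0.56 ± 0.18 for rev.

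The change of fwd minus rev between minimal promoters was then tested, which compares the orientations without comparing levels between tables. For pGAPDH minus pMYC in the promoter read-out, 19 of 44 loci changed (4 upward and 15 downward), where 31.4% of all loci were called, 11.0% upward and 20.4% downward. At TRE6_060S0072 the change was -1.24 (SE 0.06, adjusted p = 2.5e-05), from differences of 0.67 with pGAPDH and 1.91 with pMYC. At TRE6_060S0024 it was -0.89 (SE 0.16, adjusted p = 0.0045, and 0.077 without DNA replicate 2), from 0.42 and 1.31. At TRE6_060S0047 it was -0.85 (SE 0.12, adjusted p = 0.0010), from -1.03 and -0.18. The gap between orientations thus narrowed at TRE6_060S0072 and TRE6_060S0024 and widened at TRE6_060S0047 with pGAPDH. The SD of the log2 ratios over all elements of that read-out was 0.666 with pGAPDH, against 1.247 with pMYC. Whether a narrower gap goes beyond that smaller spread was not tested. The 19 calls were 9 without either DNA replicate.

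For pAPOBEC3F minus pMYC in the promoter read-out, 1 of 36 loci changed, where 13.3% of all loci were called. It was TRE6_060S0032, by -0.57 (SE 0.12, adjusted p = 0.025), from 0.44 with pAPOBEC3F and 1.01 with pMYC. That call was lost without either DNA replicate (adjusted p = 0.23 and 0.24), with the replicate number as a block (0.060) and without a trend (0.059), while 11 loci were called without either RNA replicate. In the enhancer read-out of the same pair limma called 0 of 36 loci, with 4 at an unadjusted p under 0.05, where 0.106% of all loci were called. There were 5 calls without RNA replicate 1 and 8 without RNA replicate 2.

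For pGAPDH minus pMYC in the enhancer read-out, 3 of 44 loci changed, where 3.03% of all loci were called. At TRE6_060S0055 the change was 1.84 (SE 0.21, adjusted p = 0.00042), from -1.04 with pGAPDH and -2.88 with pMYC. At TRE6_060S0058 it was 1.74 (SE 0.28, adjusted p = 0.0066), from -0.40 and -2.13. At TRE6_060S0072 it was -1.24 (SE 0.16, adjusted p = 0.0012), from 0.16 and 1.40. At all 3 loci the orientations lay closer together with pGAPDH. Levels also spread less in that table as a whole: the SD of the log2 ratios over all elements was 0.334, against 0.717 with pMYC. Whether the change at these loci goes beyond that smaller spread was not tested. The 3 calls were 6 without RNA replicate 2, 6 with the replicate block and 0 without a trend in the variance, where the adjusted p of these loci were 0.067, 0.084 and 0.11.

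The 2 read-outs were compared over the members as a description, since they are separate libraries normalized apart. The log2 ratios correlated with r = 0.503 (rho = 0.562) over 114 members with pGAPDH, r = 0.722 (rho = 0.726) over 102 with pAPOBEC3F and r = 0.797 (rho = 0.714) over 105 with pMYC. Without locus TRE6_060S0005 r was 0.639 with pGAPDH and 0.757 with pAPOBEC3F. Members share the plasmid pool and, in pairs, a locus, and the enhancer values carry more noise. Of the members called higher as enhancers, 85.7% with pGAPDH, 97.4% with pAPOBEC3F and 92.0% with pMYC were also called higher as promoters, where 82.4%, 95.4% and 93.1% of all elements called higher as enhancers were. Of the members called higher as promoters, 52.2%, 52.1% and 65.7% were called higher as enhancers, where 53.0%, 54.8% and 71.4% of all elements were.

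Some members ranked very differently in the 2 read-outs, by their percentile among all elements of each table. With pGAPDH, TRE6_060S0005.fwd stood 86.56 percentile points higher as a promoter than as an enhancer, and TRE6_060S0050.rev differed by -79.56 points. With pAPOBEC3F, TRE6_060S0010.rev stood 60.48 points higher as a promoter, with 297 and 311 in promoter RNA, against 86.8 and 100.4 in promoter DNA (1.71 ± 0.10), and with 114 and 109 in enhancer RNA, against 135 and 159 in enhancer DNA (-0.36 ± 0.22, adjusted p = 0.21). RNA of this element was above DNA in the promoter libraries and below it in the enhancer libraries. TRE6_060S0068.rev went the other way with pAPOBEC3F and pMYC (-68.11 and -61.89 points). With pAPOBEC3F it had 33.4 and 35.8 in promoter RNA, against 62.1 and 53.3 in promoter DNA (-0.72 ± 0.22, adjusted p = 0.0030), and 132 and 130.2 in enhancer RNA, against 74.0 and 91.3 in enhancer DNA (0.69 ± 0.23, adjusted p = 0.033). The promoter call was lost without DNA replicate 1 (adjusted p = 0.12), and the enhancer call without DNA replicates 1 and 2 (0.44 and 0.16) and with the table centred on its median (0.059).

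The change of fwd minus rev between read-outs, promoter minus enhancer, was tested for each minimal promoter. With pGAPDH, 30 of 54 loci changed (21 upward and 9 downward), where 46.4% of all loci were called, 30.9% upward and 15.5% downward. With pAPOBEC3F, 8 of 45 loci changed (6 upward and 2 downward), where 22.6% of all loci were called, 16.0% upward and 6.58% downward. With pMYC, 15 of 44 loci changed (14 upward and 1 downward), where 23.9% of all loci were called, 18.4% upward and 5.46% downward. The 8 calls with pAPOBEC3F were 0 without either DNA replicate, 22 without RNA replicate 1, 23 without RNA replicate 2, and 5 both with the replicate block and without a trend. The 15 calls with pMYC were 3 without either DNA replicate.

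Loci changed in several ways between the read-outs. TRE6_060S0032 and TRE6_060S0050 with pGAPDH were higher in fwd as promoters, while fwd minus rev as enhancers was -0.16 and -0.26 (adjusted p = 0.10 and 0.12). The change was 1.37 (SE 0.07, adjusted p = 1.6e-08) and 1.35 (SE 0.13, adjusted p = 1.9e-06). TRE6_060S0015 with pGAPDH was called higher in rev as a promoter, while its enhancer difference was not called (limma adjusted p = 0.088). The change was -0.95 (SE 0.08, adjusted p = 1.0e-06), from -1.14 as a promoter and -0.19 as an enhancer. TRE6_060S0019 was higher in rev as a promoter, while as an enhancer fwd minus rev was 0.07 with pAPOBEC3F and 0.77 with pMYC (adjusted p = 0.88 and 0.16). Its change was -1.61 (SE 0.23, adjusted p = 0.0025, and 0.13 and 0.14 without DNA replicates 1 and 2) with pAPOBEC3F and -1.83 (SE 0.36, adjusted p = 0.0035, and 0.083 and 0.10 without them) with pMYC. At TRE6_060S0055 and TRE6_060S0058 with pMYC the excess of rev was smaller as a promoter than as an enhancer. The changes were 1.10 (SE 0.20, adjusted p = 0.0024, and 0.054 and 0.085 without DNA replicates 1 and 2) and 1.32 (SE 0.32, adjusted p = 0.012, and 0.10 and 0.19 without them). With pGAPDH the change at TRE6_060S0055 ran the other way, at -0.55 (SE 0.11, adjusted p = 0.0013), from -1.59 as a promoter and -1.04 as an enhancer.

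Some loci were called in opposite orientations by the 2 read-outs. With pGAPDH, 12 loci were called in both read-outs, and 6 of them were higher in the same orientation. The other 6 were higher in fwd as promoters and in rev as enhancers, among them TRE6_060S0003, TRE6_060S0010 and TRE6_060S0069. Fwd minus rev at these named loci was 0.20, 0.13 and 0.09 as promoters (limma adjusted p = 0.0021, 0.032 and 0.047). As enhancers it was -0.34, -0.38 and -0.22 (limma adjusted p = 0.0088, 0.0046 and 0.046). The members' enhancer orientation calls with pGAPDH were all lost without a trend of the variance, and most were lost without either RNA replicate. Over the whole pGAPDH tables, 43 of 188 loci called in both read-outs (22.9%) were higher in fwd as promoters and in rev as enhancers, and 11 the other way round. With pMYC, 2 of 8 such members' loci were opposed in that way, against 13 of 121 over all loci (10.7%), and with pAPOBEC3F 0 of 3, against 5 of 52 (9.62%). None of the members' loci was called higher in rev as a promoter and in fwd as an enhancer with any of the 3 minimal promoters, where 3 of all loci were with pAPOBEC3F and 5 with pMYC. The difference between the members and all loci was not tested. Enhancer calls for fwd were few, at 0, 1 and 3 loci with pGAPDH, pAPOBEC3F and pMYC.

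Between minimal promoters, levels were set side by side by percentile, with no test. In the promoter read-out TRE6_060S0062.rev stood at percentile 63.86 with pGAPDH and 59.13 with pAPOBEC3F, against 23.66 with pMYC. Its values were 232 and 222 in RNA, against 214 and 207 in DNA, with pGAPDH (0.11 ± 0.01), and 62.6 and 55.1 in RNA, against 76.6 and 69.6 in DNA, with pMYC (-0.31 ± 0.03). Its calls, higher with pGAPDH and lower with pMYC (adjusted p = 0.033 and 0.038), were both lost without DNA replicate 2 (0.21 and 0.13), and that with pMYC also with the replicate number as a block (0.055). TRE6_060S0032.rev went the other way with pGAPDH. It stood at percentile 3.98 there and 69.54 with pAPOBEC3F, against 58.38 with pMYC, with log2 ratios of -1.10 ± 0.05, 1.28 ± 0.09 and 0.45 ± 0.01. TRE6_060S0047.fwd stood at 25.10 with pGAPDH and 74.10 with pAPOBEC3F, against 76.88 with pMYC.

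In the enhancer read-out TRE6_060S0050.rev stood at percentile 3.75 with pAPOBEC3F, against 70.36 with pMYC, with log2 ratios of -0.71 ± 0.10 and 0.52 ± 0.25. The first was called lower and the second higher, each call being lost without either DNA replicate (adjusted p = 0.22 and 0.29 with pAPOBEC3F, 0.22 and 0.097 with pMYC). TRE6_060S0003.fwd stood at 18.37 with pGAPDH, where it was called lower (-0.21 ± 0.02, adjusted p = 0.00064, and 0.064 without a trend), and at 72.67 with pMYC, where it was called higher (0.58 ± 0.02, adjusted p = 1.9e-08). TRE6_060S0010.fwd stood at 84.56 with pAPOBEC3F, against 27.80 with pMYC, but the first rests on 25 RNA and 61 DNA reads (0.91 ± 0.71, adjusted p = 0.10).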

How the data were processed

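Reads of paBC and eaBC barcodes in RNA and plasmid DNA of electroporated K-562 cells were analysed in 6 tables of the second plasmid set, with 2 RNA and 2 DNA libraries each. The submitters' processing notes name build hg38 and the tools limma, edgeR and fastp, without their roles. Tool versions, barcode matching and the order of steps are not given in the sources used here. The 4 signal columns of each table hold the authors' scaled values per element and library, whose scaling the deposited headers do not name. In every column 100% of these values were whole multiples of 1 step (tolerance 0.02), which was taken as 1 read. That is an inference from the values which no header states, and every read count given rests on it. A separate check did not accept the recovered reads for most columns, so the unit itself was kept as a scaled signal. The deposited log2 fold changes and log2 means, raw and adjusted p-values and 2 score columns (t and B) carry the names that limma gives its output, per the file headers. The log2 fold changes and adjusted p-values served only as an alternative for the level calls.

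For each table, log2 of the reads plus 0.5, put back on the authors' scale, was fitted with limma 3.58.1 in R 4.3.3 (lmFit, then eBayes with a trend over abundance), RNA minus DNA, with no filter beyond the authors' and with Benjamini-Hochberg adjustment over the whole table. Elements without values in the authors' fit, 0 of them members, stayed out. Fwd minus rev was formed within each library, and its change between minimal promoters or read-outs was fitted in the same way. A call is an adjusted p under 0.05. Tables were normalized separately, so levels were not tested between them. Alternatives were 0.1 and 1 reads added, a mean of at least 20 reads, eBayes without a trend, centring on the table's median, the authors' deposited calls, a replicate block and leaving out each library. On simulated data with 200 changed elements a table, log2 changes of 0.5 were recovered for 46.3% of elements (pAPOBEC3F enhancer, 2695 tested) to 95.5% (pGAPDH promoter, 3044 tested), and changes of 2 for at least 98.5% in all 6 tables. Orientation differences of 0.5 were recovered for 28.1% (pAPOBEC3F enhancer, 1188 loci) to 92.2% (pGAPDH promoter, 1429 loci).

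Members and lists were chosen with earlier results of these data known. The rule for named members covers, in each table, the 6 highest and 3 lowest called members and the 3 largest called orientation differences either way, the 3 largest percentile differences either way between read-outs and against pMYC, the 3 largest called changes, and loci called higher in all 12 measurements. TRE6_060S0057.fwd and TRE6_060S0020 fall under it, and their other values are given beside those that named them. Per the labels, RNA and DNA of a replicate come from the same pool of cells, so the replicate numbers pair the libraries. The main fit did not use this pairing, and the replicate block was kept as an alternative. Same-numbered RNA and DNA libraries did not deviate together over the elements (correlations of -0.074 to 0.028 in 6 tables). That does not remove a pairing set by the design. With the block, 9 of 598 named values lost their call, and only some of these are given with their values. The first plasmid set and the plasmid index libraries were not used here.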

Additional observations from a re-analysis of the deposited data

Results flagged for a closer look

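Listed below are results in which the orientation difference of a locus, fwd minus rev on the log2 scale, changed between minimal promoters or between read-outs by a test of that change (limma, adjusted p under 0.05). Outlying samples were not looked for, since each group has 2 libraries.

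Between minimal promoters, 19 of the members' loci (43.2%, against 31.4% of all loci) changed for pGAPDH minus pMYC in the promoter read-out, 3 (6.82%, against 3.03%) in the enhancer read-out, and 1 (2.78%, against 13.3%) for pAPOBEC3F minus pMYC in the promoter read-out. In the promoter read-out the largest changes for pGAPDH minus pMYC were -1.24 at TRE6_060S0072, -0.89 at TRE6_060S0024 and -0.85 at TRE6_060S0047. In the enhancer read-out the changes were 1.84 at TRE6_060S0055, 1.74 at TRE6_060S0058 and -1.24 at TRE6_060S0072. The locus that changed for pAPOBEC3F minus pMYC was TRE6_060S0032, by -0.57.

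Between read-outs, promoter minus enhancer, 30 loci (55.6%, against 46.4% of all loci) changed with pGAPDH, 8 (17.8%, against 22.6%) with pAPOBEC3F and 15 (34.1%, against 23.9%) with pMYC. The shares of the members were not tested against those of all loci. The largest called changes with pGAPDH were 1.37 at TRE6_060S0032, 1.35 at TRE6_060S0050 and -0.95 at TRE6_060S0015. With pAPOBEC3F they were -1.61 at TRE6_060S0019, -1.2 at TRE6_060S0015 and 0.75 at TRE6_060S0058. With pMYC they were -1.83 at TRE6_060S0019, 1.32 at TRE6_060S0058 and 1.1 at TRE6_060S0055. The call at TRE6_060S0015 with pAPOBEC3F (SE 0.34, adjusted p = 0.035) was lost without DNA replicates 1 and 2 (0.29 and 0.30), without a trend of the variance (0.066) and with the replicate block (0.068). That at TRE6_060S0058 with pAPOBEC3F (SE 0.20, adjusted p = 0.029) was lost without DNA replicates 1 and 2 and without a trend (0.24, 0.37 and 0.052).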

How the results depend on the processing

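With 2 libraries a group, leaving out 1 moved many counts. The lowest and highest counts over the 4 libraries left out in turn, in the order lower calls of members for pGAPDH enhancer, pAPOBEC3F promoter, pAPOBEC3F enhancer and pMYC enhancer, were 11 to 21, 7 to 20, 1 to 11 and 0 to 10, and higher calls for pAPOBEC3F enhancer were 23 to 51. Orientation calls were 1 to 21 for pGAPDH enhancer, 13 to 35 for pAPOBEC3F promoter, 0 to 16 for pAPOBEC3F enhancer, 18 to 34 for pMYC promoter and 4 to 16 for pMYC enhancer. Changes of orientation were 9 to 26 (pGAPDH minus pMYC, promoter), 0 to 11 (pAPOBEC3F minus pMYC, promoter), 3 to 6 (pGAPDH minus pMYC, enhancer), 0 to 8 (pAPOBEC3F minus pMYC, enhancer), 0 to 23 (pAPOBEC3F promoter minus enhancer) and 3 to 21 (pMYC promoter minus enhancer). Such a fit takes its spread only from the molecule that keeps 2 libraries, the lone library being assumed to vary like it. Without a trend, lower calls were 14 (pGAPDH enhancer) and 1 (pAPOBEC3F enhancer), orientation calls 0 (pGAPDH enhancer) and 3 (pMYC enhancer), and changes 0 (pAPOBEC3F minus pMYC, promoter), 0 (pGAPDH minus pMYC, enhancer) and 5 (pAPOBEC3F promoter minus enhancer). Centred on the table's median, lower calls were 26 (pMYC promoter) and 12 (pMYC enhancer), as that setting moves the zero point. The replicate block gave 0 changes for pAPOBEC3F minus pMYC in the promoter read-out, 6 for pGAPDH minus pMYC in the enhancer read-out and 5 for pAPOBEC3F promoter minus enhancer; of 598 named values it ended 9 calls and added 4, and it moved no other count by over 1.5 times. The other counts stayed within 1.5 times of those reported, and where no setting is named the cause was not tested.

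Over the named members and loci, 5665 of 6104 values kept direction and call, 281 lost the call, 149 gained it and 9 reversed. Of the 9 reversals, 7 came with centring, namely TRE6_060S0023.rev at -0.0702 (pAPOBEC3F promoter), TRE6_060S0028.fwd at -0.16 (pAPOBEC3F promoter), TRE6_060S0028.rev at -0.0159 (pMYC enhancer) and -0.14 (pMYC promoter), TRE6_060S0054.fwd at 0.0625 (pGAPDH promoter), TRE6_060S0065.rev at -0.22 (pAPOBEC3F promoter) and TRE6_060S0070.fwd at -0.21 (pMYC promoter). Without RNA replicate 2, TRE6_060S0024.rev (pMYC enhancer) stood at -0.58 (0.63 without RNA replicate 1) and the change at TRE6_060S0054 (pAPOBEC3F promoter minus enhancer) at -0.17 (0.19 without RNA replicate 1). The edgeR alternatives planned with other normalizations were not run, because the deposited unit is a scaled signal and not counts. In simulation, changes of 0.5 on the log2 scale were recovered less often as enhancers than as promoters with each minimal promoter. Level changes of that size were recovered for 76.1% (pAPOBEC3F), 85.1% (pMYC) and 95.5% (pGAPDH) of elements as promoters. As enhancers they were recovered for 46.3%, 61.2% and 86.6%. Orientation differences of 0.5 were recovered for 66.1%, 69.6% and 92.2% of loci as promoters and 28.1%, 41.5% and 79.4% as enhancers. The simulated false share was 1.0% to 7.3% for levels and 2.0% to 6.3% for orientation differences, depending on the table. The simulated noise was normal and equal in RNA and DNA, with a spread set by the abundance of the element alone. That is close to the form the fit assumes. The simulated shares therefore cannot show how the fit behaves where spread differs between elements of like abundance or between RNA and DNA. Depth was not varied in the simulation, so its part in these shares was not tested. The level simulation changed fewer elements than any measured table had calls, so its shares may not carry over.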
